A study of Homo sapiens with 3 samples.

Results

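The PAX genes, PAX1 to PAX9, are the 9 human genes that encode transcription factors with a paired box, and their promoter contacts were described here in hESC-CMs, which are cardiomyocytes made in culture from human embryonic stem cells. A promoter fragment was taken as a member when it stands in the promoter column of the deposited calls and holds an annotated transcript start of a PAX gene. The rule found 12 promoter fragments of all 9 genes, out of 19075 promoter fragments in the calls. These 19075 are meant below by all promoter fragments, and captured fragments with no call in that column are not among them. PAX5, PAX6 and PAX8 had 2 fragments each, and the other genes had 1. Promoter capture Hi-C (PCHi-C) joins DNA fragments that lie close together in the nucleus and enriches the joined pairs that carry a promoter. The data come from 1 established cell line, WA09 (H9), as 3 biological replicates of its cardiomyocytes, and there is no other condition or treatment. Each call is a pair of HindIII restriction fragments with a CHiCAGO score, which grows with the excess of read pairs over a background that depends on distance, and the lowest score listed was 5. The files hold contacts and no expression, so neither the cell type nor the activity of any PAX gene was checked.

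PAX proteins bind DNA through the paired domain, and several of them also carry a homeodomain. They are known for laying out organs and cell lineages in the embryo and fall into 4 subfamilies by sequence, PAX1 and PAX9, then PAX2, PAX5 and PAX8, then PAX3 and PAX7, and last PAX4 and PAX6. None of them is a textbook regulator of the differentiated cardiomyocyte, although PAX3 is known for its role in the neural crest cells that help to build the outflow tract of the heart. A distal element, such as an enhancer, can lie far along the chromosome from the promoter it acts on, often inside an unrelated gene.

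For PAX9, PAX5 and PAX6, the 3 genes with the most contacts on average over the replicates, the 250 bases before 1 transcript start are shown, so that captured sequence can be read beside the contacts. For PAX5 and PAX6 the start shown is the outermost one, which at PAX5 is not on the fragment with more contacts. The sequences are those of RefSeq (GRCh38.p14), placed by exact match inside the captured fragment of GRCh37. Of the 9 genes, 8 have an entry in that table, and entries of 7 were placed on a captured fragment. Capitals mark a match to TATAAA, to GTCACGC (a core letter string of paired domain sites) or to the CTCF core CCNNNAGGNGGC, each searched on both strands. The first is PAX9 at chr14:37126523-37126772 (plus strand), the next is the distal PAX5 start at chr9:37034266-37034515 (minus strand), and the last is the upstream PAX6 start at chr11:31839510-31839759 (minus strand).
PAX9: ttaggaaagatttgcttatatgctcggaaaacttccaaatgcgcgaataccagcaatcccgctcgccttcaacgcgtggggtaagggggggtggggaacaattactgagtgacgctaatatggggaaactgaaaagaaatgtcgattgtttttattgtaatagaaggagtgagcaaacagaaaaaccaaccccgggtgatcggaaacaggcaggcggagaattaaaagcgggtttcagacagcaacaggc
PAX5: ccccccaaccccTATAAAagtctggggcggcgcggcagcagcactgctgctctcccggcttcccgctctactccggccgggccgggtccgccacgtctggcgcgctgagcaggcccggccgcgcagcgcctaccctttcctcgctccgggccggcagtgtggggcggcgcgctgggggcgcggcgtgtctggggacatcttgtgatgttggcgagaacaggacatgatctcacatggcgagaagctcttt
PAX6: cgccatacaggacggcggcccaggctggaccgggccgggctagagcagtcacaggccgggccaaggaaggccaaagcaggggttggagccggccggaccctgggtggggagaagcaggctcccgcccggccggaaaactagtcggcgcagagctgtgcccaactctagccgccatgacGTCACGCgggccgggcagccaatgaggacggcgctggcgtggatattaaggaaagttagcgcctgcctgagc
The PAX9 stretch is 46.8% G or C, against 69.6% for PAX5 and 68.4% for PAX6. Over the 19 PAX entries of the table, each 300 bases long, 1 held TATAAA, 1 held GTCACGC and 0 held the CTCF core. Of all 35116 promoters in the table, 11.5% held TATAAA, 2.52% held GTCACGC and 4.64% held the CTCF core.

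The PAX promoter fragments had 79 contacts in replicate 1, 76 in replicate 2 and 81 in replicate 3 (mean 78.7 ± 2.52 SD, n = 3). Their union held 137 distinct contacts. All of them lay on the chromosome of the PAX gene, and 3.65% of the contacts of all promoter fragments lay on another chromosome. A count of 0 of 137 allows a share of up to 2.19%, counting error only. That bound takes the contacts as independent, but they come from 12 fragments, so it does not place PAX below the background. Of the 137, 37 (27.0%, 95% Wilson interval 20.3% to 35%, counting error only) were called in all 3 replicates, beside 24.4% over all promoter fragments. In 2 replicates 25 contacts were called, and in a single replicate 75. A pair missing from a replicate scored under 5 there, which is not the same as no contact. The 37 contacts came from 7 of the 9 genes and 8 of the 12 fragments (66.7%), and 51.9% of all promoter fragments had such a contact. PAX9 alone gave 20 of the 37, so the share without PAX9 was 17 of 99 (17.2%, interval 11.0% to 25.8%). Without PAX5 as well it was 8 of 72 (11.1%, interval 5.74% to 20.4%). The reproducible PAX contacts were thus mostly those of PAX9 and PAX5.

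The mean number of contacts per promoter fragment differed between PAX and all promoters by less than the spread between replicates. PAX promoter fragments averaged 6.58, 6.33 and 6.75 contacts in replicates 1, 2 and 3, and all promoter fragments averaged 6.49, 6.34 and 6.40. The difference was 0.145 ± 0.182 (SD of 3 paired replicates), PAX minus all, which is smaller than its spread, and 3 pairs cannot give an exact two-sided permutation p under 0.25. On the calls of the merged replicates the difference was 3.32. In the union the medians were 8.0 contacts per PAX fragment and 6.00 over all fragments. The PAX fragments ranged from 2 to 38 contacts, and of the 12, 4 lay above the mean and 9 above the median of all promoter fragments. SOX fragments, of another family of developmental transcription factors, ranged from 3 to 41 with a median of 8.50 over 18 fragments. FOX fragments, of the forkhead family, ranged from 1 to 124 with a median of 6.00 over 39 fragments. The ranges overlapped, but the mean per fragment was lower for PAX (6.56 ± 0.210, SD, n = 3) than for SOX (8.63 ± 0.17) and FOX (11.6 ± 0.0645), with no overlap of the replicates. The share called in all 3 replicates was 34.0% for SOX and 35.2% for FOX.

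**Figure D1:**
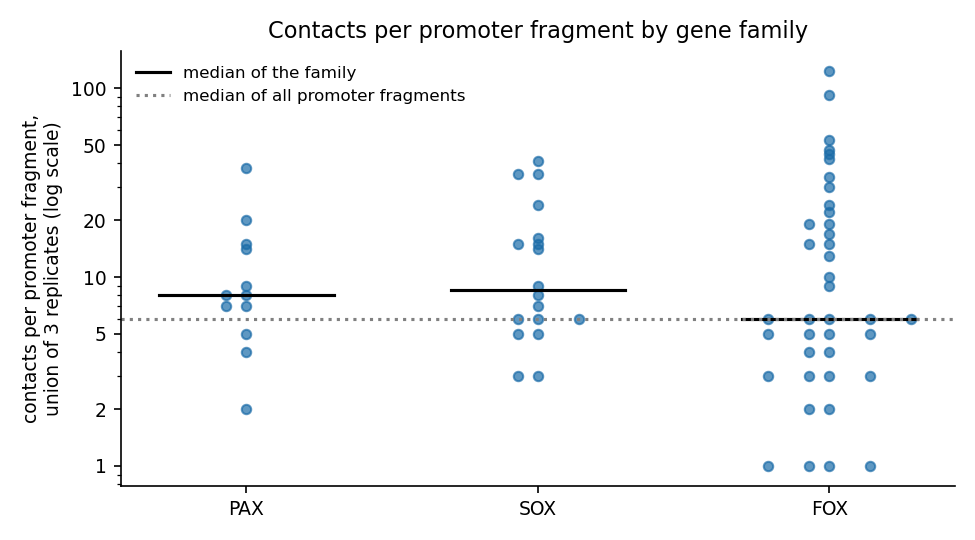
Each point is 1 promoter fragment and the y axis (log scale) is its number of distinct contacts in the union of the 3 replicates; short lines are family medians and the dotted line is the median of all 19075 promoter fragments. The PAX fragments run from 2 to 38 contacts, inside the range of the FOX fragments.

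By gene, PAX9 had 27, 27 and 31 contacts in replicates 1, 2 and 3 (28.3 ± 2.31, SD, n = 3). PAX5 had 20, 14 and 14 (16 ± 3.46) and PAX6 had 10, 9 and 8 (9.0 ± 1.0). The replicates of PAX9 did not overlap those of PAX5, nor those of PAX5 those of PAX6. PAX4 had 3, 10 and 7 (6.67 ± 3.51), PAX8 had 6, 6 and 8 (6.67 ± 1.15) and PAX3 had 7, 4 and 8 (6.33 ± 2.08). These 3 genes overlapped with each other and with PAX6. PAX1 had 1, 4 and 2 (2.33 ± 1.53), PAX2 had 4, 1 and 2 (2.33 ± 1.53) and PAX7 had 1 in each replicate. The last 3 genes could not be ordered beyond their spread. Leaving out 1 replicate moved some union counts by more than 1.5 times, from 5 to 2 for PAX2 without replicate 1 and from 15 to 8 for PAX4 without replicate 2. Without replicate 3, PAX3 moved from 14 to 8, PAX8 from 16 to 10 and PAX7 from 2 to 1. The order was also not that of the merged calls, where PAX5 had 48 contacts and PAX9 had 35. There PAX1 had 8 contacts against 4 in the union, PAX3 had 4 against 14 and PAX8 had 3 against 16.

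**Figure D2:**
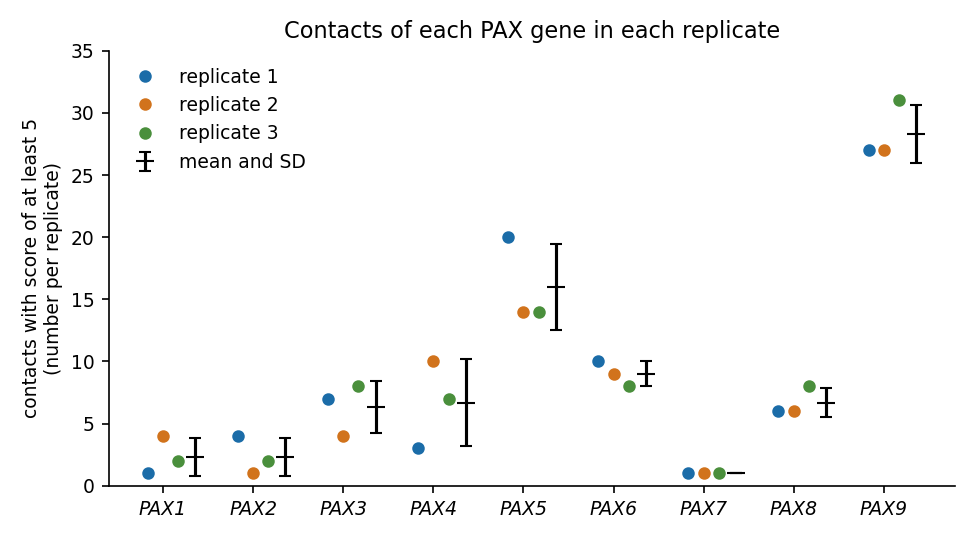
Points are the contacts with a score of at least 5 of each PAX gene in each replicate (y axis, number), with the mean and SD over 3 replicates in black. PAX9 lies at 27 to 31 contacts, above every replicate of the other genes, and PAX5 comes next at 14 to 20; on the merged calls, which are not plotted, PAX5 had 48 and PAX9 had 35.

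The contacts of PAX genes spanned shorter distances than those of promoters at large. The median distance between fragment midpoints was 333, 409 and 404 kb in replicates 1, 2 and 3 and 380 kb in the union, and over all promoters it was 541, 549 and 580 kb and 716 kb. Every replicate's PAX median was below every replicate's median over all promoters. This did not hold for each gene. In the union the medians of PAX1 (1031 kb, 4 contacts) and PAX7 (108568 kb, 2 contacts) lay above 716 kb, and those of the other genes below it. PAX9 and PAX5 gave 38 and 27 of the 137 contacts, with medians of 463 and 278 kb, and the median without them was not taken. Contacts over more than 2 Mb made up 14 of 137 (10.2%), beside 24.7% over all promoter fragments. Each of these 14 was called in 1 replicate, as were 82.2% of such contacts over all promoter fragments. Within 2 Mb, 37 of 123 PAX contacts (30.1%) were called in all 3 replicates, beside 30.9%, so the share in all 3 replicates lay near the background once both were limited to 2 Mb. Distances within 2 Mb were not matched.

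At several PAX promoter fragments the contacts ran to 1 side only. Of 9 PAX fragments with at least 5 contacts within 2 Mb, 7 had them all on 1 side, and 51.4% of all promoter fragments with at least 5 such contacts did so. The 7 include both fragments of PAX5 and both of PAX6, which shared 6 and 4 contacted fragments. They are therefore not 7 independent cases, and a difference from the background was not tested. All 36 contacts of PAX9 within 2 Mb lay downstream, in the direction of transcription. All 26 of PAX5 and all 10 of PAX4 lay upstream, and all 16 of PAX6 lay downstream. PAX3 had 7 upstream and 5 downstream, and PAX8 had 3 upstream and 11 downstream. By fragment, the upstream PAX8 fragment had 9 contacts, all downstream, and the downstream PAX8 fragment had 3 upstream and 2 downstream. PAX4 and PAX6, of 1 subfamily, thus pointed opposite ways.

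**Figure D3:**
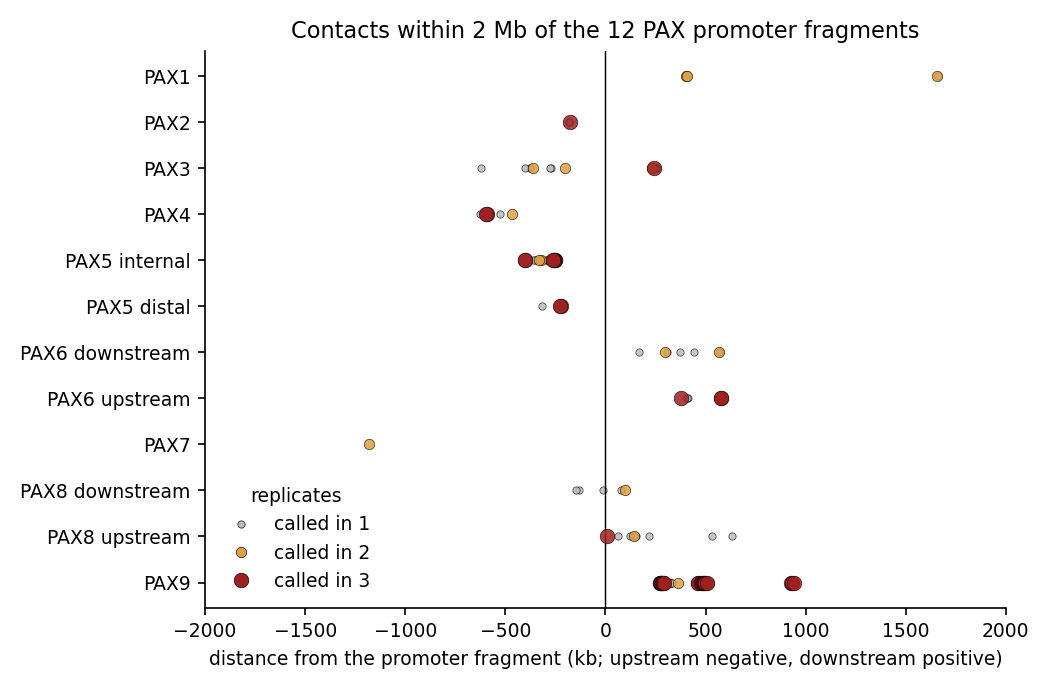
Each row is a PAX promoter fragment and each point a contact within 2 Mb at its distance from the promoter fragment (x axis, kb, upstream negative and downstream positive); colour and size give the number of replicates that called it. Within 2 Mb PAX9, PAX6 and the upstream PAX8 fragment reach downstream only. PAX5 and PAX4 reach upstream only, and PAX3 and the downstream PAX8 fragment reach both ways.

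Most PAX contacts fell inside other genes. The midpoint of the contacted fragment, the promoter-interacting region (PIR), lay inside another gene for 111 of 137 contacts (81.0%), beside 63.5% over all promoter fragments. It lay inside the same PAX gene for 2 (1.46%), beside 3.83%, and between genes for 24 (17.5%). Of the 111 inside another gene, 37 were of PAX9 and 23 of PAX5, and 31 of 38 PAX9 contacts lay inside SLC25A21 and 23 of 27 PAX5 contacts inside ZCCHC7. Without both genes the share inside another gene was 51 of 72 (70.8%, interval 59.5% to 80.1%, counting error only). That interval holds the background, but it takes the contacts as independent, and many are of neighbouring fragments. The genes left out were those with the most contacts in the union, so a difference from the background was not tested. The PIR was itself a promoter fragment for 25 contacts (18.2%), beside 17.5% over all promoter fragments. This share was 9.09% on the merged calls and 11.8% with PAX in the promoter column alone. In the union, 3 of the 25, of PAX4, PAX6 and PAX9, were called in all 3 replicates. No PAX promoter fragment contacted a different PAX gene. Only PAX3 and PAX8 share a chromosome, and all contacts lay on the chromosome of the PAX gene, so this adds little. Fragments of PAX1, PAX3, PAX6 and PAX9, the internal one of PAX5 and the downstream one of PAX8 also hold starts of other, mostly noncoding, genes. Contacts of these fragments therefore cannot be assigned to the PAX gene alone.

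PAX9, known for its part in the development of teeth, thymus and the axial skeleton, stood at the 95th percentile of all promoter fragments by number of contacts. Its promoter fragment is chr14:37125742-37128055, which holds 3 annotated starts of PAX9, 2 of them of coding transcripts. Its contacts within 2 Mb fell into 3 blocks, where a block is a run of contacted fragments with midpoints at most 50 kb apart. The first block, chr14:37397623-37489553, lay 272 to 361 kb downstream and held 14 contacts, 8 of them in all 3 replicates. The second, chr14:37577636-37647454, lay 452 to 515 kb downstream and held 17 contacts, 9 of them in all 3 replicates. Both lie in SLC25A21, which encodes a mitochondrial carrier of oxodicarboxylates, with 30 of the contacts in introns and 1 on a fragment that overlaps an exon. The third, chr14:38051025-38074123, lay 928 to 947 kb downstream, around FOXA1 and the 5′ end of TTC6, and held 5 contacts, 3 of them in all 3 replicates. FOXA1 encodes a forkhead pioneer factor of endoderm. The promoters of SLC25A21 and MIPOL1 lie between PAX9 and the third block.

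The highest mean PAX score was at a 312 bp fragment of the second block, chr14:37619513-37619824, with scores of 29.11, 25.27 and 27.19 in replicates 1, 2 and 3 (27.2 ± 1.92, SD, n = 3). The adjoining fragment chr14:37619825-37620862 scored 25.90, 23.92 and 27.28 (25.7 ± 1.69). In the first block chr14:37411556-37415457 scored 27.24, 25.05 and 25.46 (25.9 ± 1.16). These 3 summits overlapped across replicates and could not be ranked. The fragment that adjoins chr14:37411556-37415457 downstream scored 9.81 ± 0.798, and the one after it scored 13.3 on average, so the fall from that summit was not steady. The mean score of chr14:37619513-37619824 was above that of 97.2% of the 48209 distinct pairs called in all 3 replicates over all promoters. Among PAX contacts called in all 3 replicates, 13 had a mean score of at least 10, and 11 of these were of PAX9. In the third block the scores varied more, with 9.98, 7.45 and 17.58 at chr14:38057853-38058056 (11.7 ± 5.27).

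**Figure D4:**
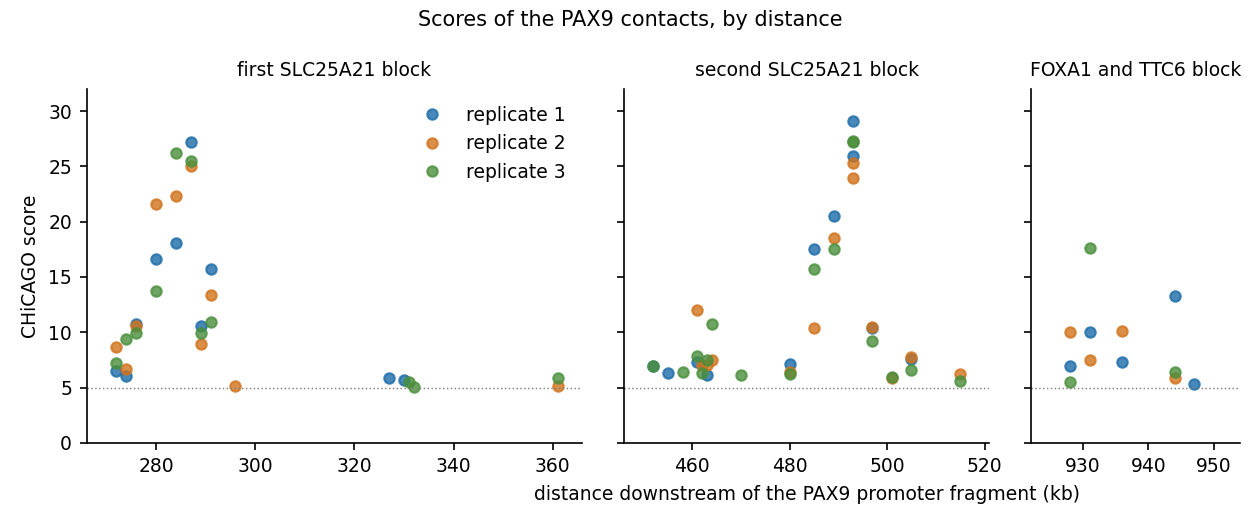
Points are CHiCAGO scores (y axis) of the PAX9 contacts in each replicate, by distance downstream of the PAX9 promoter fragment (x axis, kb) in the 3 blocks, and the dotted line is the lowest score listed, 5. Both SLC25A21 blocks rise to a summit above 20 in all 3 replicates, and the block at FOXA1 and TTC6 is lower and more scattered.

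Short fragments of the 3 blocks are shown because each is a contact in all 3 replicates that is small enough to read as sequence. They are taken from GRCh37, plus strand, and capitals mark the bases left by the HindIII cut at the ends. The first is chr14:37402708-37402940 of the first block, with scores of 10.74, 10.56 and 9.95. The next is the first 300 bases of the summit fragment of the second block, chr14:37619513-37619812, and the last is chr14:38057853-38058056 of the third block, which overlaps an exon of the noncoding gene ENSG00000289903 beside FOXA1.
block 1: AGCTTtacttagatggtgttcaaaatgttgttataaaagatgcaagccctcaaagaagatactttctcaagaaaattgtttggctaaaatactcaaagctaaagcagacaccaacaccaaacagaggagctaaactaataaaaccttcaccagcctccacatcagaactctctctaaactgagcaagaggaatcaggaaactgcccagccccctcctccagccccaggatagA
block 2: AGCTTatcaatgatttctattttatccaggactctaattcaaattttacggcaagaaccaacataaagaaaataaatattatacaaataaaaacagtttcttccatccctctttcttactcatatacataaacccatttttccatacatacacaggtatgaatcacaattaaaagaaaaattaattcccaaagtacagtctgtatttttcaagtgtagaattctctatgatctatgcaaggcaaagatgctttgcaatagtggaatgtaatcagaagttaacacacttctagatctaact
block 3: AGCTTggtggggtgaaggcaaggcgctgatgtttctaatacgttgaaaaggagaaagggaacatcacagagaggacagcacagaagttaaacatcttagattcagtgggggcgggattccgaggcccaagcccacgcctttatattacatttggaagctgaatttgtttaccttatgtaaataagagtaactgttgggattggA
The summit fragment of the second block is 29.8% G or C, and the others are 42.1% and 44.6%. None of the 3 fragments holds the CTCF core CCNNNAGGNGGC.

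The 2 SLC25A21 blocks differed in which other promoters reached them. The promoter fragments named here were chosen after their values were seen. Fragments of the first block were contacted by 2 other promoter fragments, neither of them in all 3 replicates, and those of the second block by 6, of which 5 in all 3 replicates. The summit fragment chr14:37619513-37619824 was also called from the LINC00609 promoter, with scores of 17.87, 12.46 and 11.59. From the promoter of NKX2-1, a homeobox gene of lung and thyroid, it scored 8.06, 8.88 and 9.61. From the promoter of NKX2-8, another homeobox gene, it scored 5.46, 5.93 and 7.90. Each of these promoters lies on the far side of PAX9, and each score was below that of PAX9 in every replicate. The third block was shared more widely, by 8 other promoter fragments, 4 of them in all 3 replicates. At chr14:38057853-38058056 the NKX2-1 promoter scored 14.61, 20.14 and 29.71, above PAX9 in each replicate. A fragment with the starts of FOXA1 and TTC6 was called from PAX9 in replicates 1 and 2, with scores of 7.29 and 10.08. The promoter fragment of SLC25A21 itself was called in replicates 2 and 3, at 6.25 and 5.57. PAX9 had 2 further contacts beyond 2 Mb, at LINC01551 and C14orf28, also chosen after their values were seen, each in 1 replicate.

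PAX1, the other member of the subfamily, which also acts in the thymus and the vertebral column, had 4 contacts and none in all 3 replicates. Its highest mean score was at chr20:23337748-23341884, 1656 kb downstream, on a promoter fragment that holds the start of LINC01431, with 9.96 and 9.61 in replicates 1 and 2. That fragment was also called from 14 other promoter fragments in at least 1 replicate. Adjoining fragments 404 and 406 kb downstream, in the interval between PAX1 and FOXA2, scored 5.75 and 5.57, and 5.85 and 5.65, in replicates 2 and 3. The PAX1 and PAX9 contacts thus differed in number, with no overlap of the replicates. Within 2 Mb both lay downstream only, but the 4 of PAX1 are fewer than the 5 required above for counting sides.

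PAX5, the regulator of B cell identity, had 27 contacts from 2 promoter fragments. The distal one, chr9:37031360-37041767, holds 13 starts, and the internal one, chr9:37000340-37008401, holds 2 coding starts. All but 1 of the contacts formed a block at chr9:37241523-37406893, upstream of PAX5, and the other was a contact over more than 2 Mb in replicate 3. The block covers the introns of ZCCHC7, which encodes a zinc knuckle protein of RNA surveillance, and the interval between ZCCHC7 and GRHPR. It was not reached from PAX5 alone, since its fragments were contacted by 3 other promoter fragments, 2 of them in all 3 replicates. The promoter fragment that holds the start of ZCCHC7 contacted chr9:37260566-37264931 at 6.79, 6.32 and 7.02. The internal fragment had 18, 10 and 9 contacts (12.3 ± 4.93) and the distal fragment 2, 4 and 5 (3.67 ± 1.53), and these ranges did not overlap.

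The highest mean score of the internal fragment was at chr9:37260566-37264931, an intron of ZCCHC7, with 10.68, 9.20 and 10.88 (10.3 ± 0.918). The distal fragment scored 6.19, 7.06 and 5.39 there (6.21 ± 0.835), a difference of 4.04 ± 1.72 over 3 replicates, internal minus distal. At chr9:37259649-37260565 the internal fragment scored 8.55, 9.18 and 8.4 and the distal one 5.73, 6.03 and 5.17, a difference of 3.07 ± 0.217. The internal fragment scored higher in each replicate at both, and it lies farther away, 258 kb against 226 kb at the first. This did not hold everywhere, since at chr9:37257192-37258065 in replicate 3 the distal fragment scored 7.92 and the internal one 7.71. A paired exact permutation test over 3 replicates cannot give a two-sided p under 0.25. Of the fragments contacted, 6 were shared, out of 20 of the internal fragment and 7 of the distal one (85.7%). Next to GRHPR, the internal fragment contacted chr9:37403399-37405289 at 11.67, 7.06 and 7.68 (8.80 ± 2.50), a fragment that was not called from the distal fragment in any replicate. The adjoining chr9:37405290-37406893 was called from the internal fragment at 7.83, 7.1 and 9.8. From the distal fragment it was called on the merged replicates alone, at 6.53, so that side was not reached from the internal fragment only. The calls on the merged replicates held 48 PAX5 contacts, 23 of them in no single replicate. Of the 12 fragments that the merged calls joined to both promoter fragments, all 12 scored higher at the internal one.

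PAX2 and PAX8, the other members of this subfamily, which act in kidney, and in thyroid and kidney, had few reproducible contacts. PAX2 had 5 contacts, and 1 was called in all 3 replicates. It was at chr10:102319131-102320769, 178 kb upstream beside the 3′ end of HIF1AN, which encodes an asparagine hydroxylase acting on hypoxia-inducible factor, and it scored 5.01, 5.32 and 5.32 (5.22 ± 0.179). Those scores sat at the lower limit of the list. The 3 other near contacts of PAX2 lay next to it, inside HIF1AN, each in 1 replicate.

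PAX8 had 16 contacts from 2 promoter fragments, and 13 of them were called in 1 replicate. The contact in all 3 replicates was the shortest of the family. It joined the upstream promoter fragment, chr2:114032805-114042576, to chr2:114027524-114028700 inside PAX8, 9.58 kb away, with scores of 5.67, 5.18 and 5.77 (5.54 ± 0.316). It is the 1 of the 37 PAX contacts in all 3 replicates that the merged calls do not list. Both PAX8 promoter fragments contacted chr2:113895828-113896063, between IL1RN (the interleukin 1 receptor antagonist) and PSD4 (an exchange factor for ARF6), in replicates 1 and 3 and in replicate 2. The promoter fragment of PSD4 was called from each of them in 1 replicate. PSD4 and IL1RN were chosen after their values were seen. The calls on the merged replicates held 3 PAX8 contacts, far fewer than the union of the replicates.

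PAX6, known for its role in the eye, the brain and the pancreatic islet, had 16 contacts, all downstream within 166 to 580 kb. The upstream promoter fragment, chr11:31835029-31840462, holds 9 starts, and the downstream one, chr11:31826234-31834881, holds 48. Both also hold starts of PAUPAR, a noncoding neighbour, and of ENSG00000285283, a gene annotated as protein-coding. The upstream fragment had 5, 6 and 6 contacts and the downstream one 5, 3 and 2, so that these counts overlapped. Their union counts were equal at 8, with 4 of the 8 shared. All 3 contacts called in all 3 replicates were of the upstream fragment.

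The strongest PAX6 contact joined its upstream fragment to chr11:31456822-31458969, 380 kb away. That fragment lies in IMMP1L, which encodes a subunit of the mitochondrial inner membrane peptidase, and is itself a promoter fragment through the start of AC108456.1, an annotated miRNA. The scores were 16.46, 35 and 27.78 (26.4 ± 9.35), with replicate 1 well below the others. The downstream PAX6 fragment reached the same place in replicate 3 alone, with 6.31, a difference of -21.5, downstream minus upstream. This PIR was also called from 9 other promoter fragments, among them that of ELP4 and IMMP1L, named after its values were seen, at 9.70, 18.56 and 13.90. The other contacts in all 3 replicates lay in DCDC1, which encodes a doublecortin domain protein. They were chr11:31260591-31261189, 577 kb away, with 8.66, 10.06 and 9.19 (9.30 ± 0.707), and chr11:31261564-31263372, with 5.99, 7.69 and 8.76 (7.48 ± 1.40). The promoter starts of IMMP1L, ELP4, DNAJC24 and DCDC1 lie between them and PAX6. ELP4, whose introns are known to hold PAX6 enhancers, contained 2 PAX6 contacts. One was the shared ELP4 and IMMP1L promoter fragment, called in replicates 1 and 3 at 6.06 and 5.72. The other, chr11:31664526-31664934 in an intron, was called in replicate 1 alone, at 5.33.

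**Figure D5:**
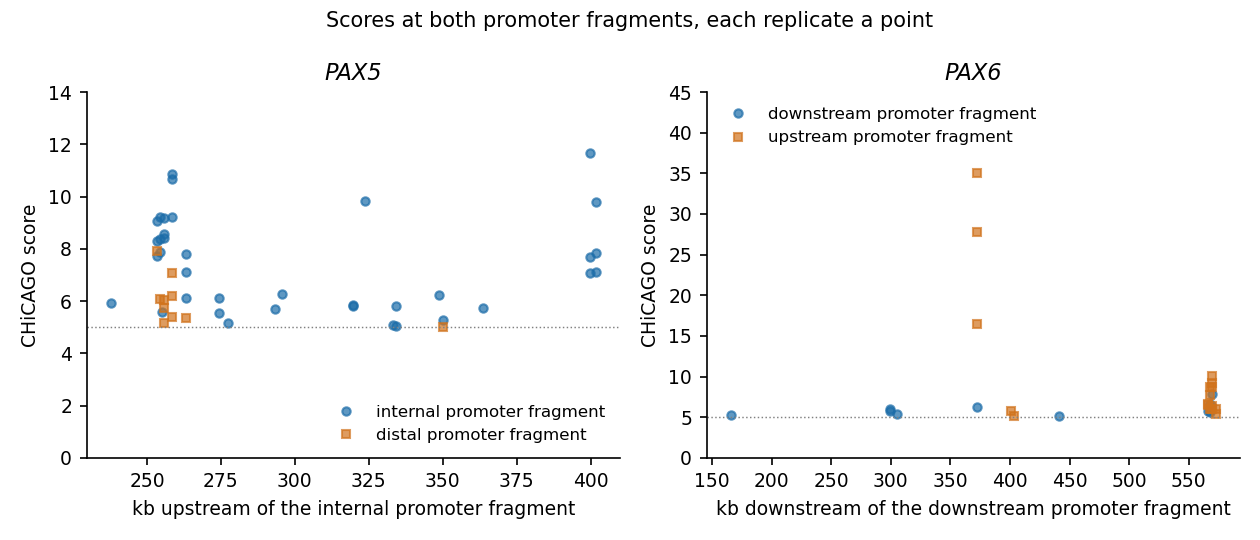
Points are CHiCAGO scores (y axis) in single replicates of the contacts of both promoter fragments of PAX5 (left) and PAX6 (right), placed by distance in kb from the internal PAX5 or the downstream PAX6 fragment, and the dotted line is the lowest score listed, 5. At PAX5 most distal points lie below the internal ones near 258 kb, and at PAX6 the upstream fragment reaches 35 at the IMMP1L fragment.

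PAX4, a regulator of endocrine cells of the pancreas, had 15 contacts, of which 12 were called in 1 replicate. Its captured fragment, chr7:127255854-127256383, is 530 bp long and holds 1 of its 6 annotated starts. Of the contacts in all 3 replicates the higher was at chr7:127844930-127848504, 591 kb upstream, a promoter fragment that holds MIR129-1, with 10.23, 6.94 and 7.31 (8.16 ± 1.80). Close to it chr7:127852479-127853295 scored 6.77, 5.87 and 6.89 (6.51 ± 0.557). The promoters of SND1 and LRRC4 lie between PAX4 and both fragments, which also were called from 5 and 4 other promoter fragments. A fragment with starts of SND1 and MIR593 scored 6.80 in replicate 2 and 9.17 in replicate 3. The promoter fragment of LEP, the leptin gene, scored 5.22 in replicate 3 alone. SND1, MIR593 and LEP were chosen after their values were seen. MIR129-1 encodes a microRNA whose mature 3′ arm is given here from RefSeq, 5′ to 3′, with the seed (bases 2 to 8) in capitals, since it starts on this contact in all 3 replicates.
hsa-miR-129-1-3p: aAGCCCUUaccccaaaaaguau

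PAX3, a regulator of muscle precursors, melanocytes and neural crest, had 14 contacts and 1 in all 3 replicates. This was chr2:222913615-222918270, 244 kb downstream, in the interval between EPHA4 and PAX3, with 6.57, 5.84 and 9.02 (7.14 ± 1.67). On the upstream side the contacts ran through SGPP2 and FARSB, and the FARSB promoter fragment, chosen like SGPP2 after its values were seen, scored 7.62 in replicate 1 and 5.40 in replicate 2. Of the 14, 7 were with promoter fragments, and none of those was called in all 3 replicates. The PAX3 fragment also holds starts of CCDC140. PAX7, which marks muscle satellite cells, had 2 contacts, the fewest of the family. One lay 1182 kb upstream at chr1:17773612-17779452, with 9.89 and 10.13 in replicates 1 and 2. The second contact scored 16.45 in replicate 3 alone, on the opposite arm of chromosome 1 at 215954 kb. These 2 contacted fragments were also called from 12 and 9 other promoter fragments. Of all promoter fragments in the calls, which leave out captured fragments without a call, 9.62% had fewer contacts than PAX7.

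Matches to the CTCF core CCNNNAGGNGGC on either strand, a letter string found in many sites of the insulator protein CTCF, were counted in the contacted fragments. Of 102 PAX fragments that are no promoter fragment, 7 (6.86%) held it, beside 7.26% of 108063 such fragments over all promoters. In fragments within 10% of the same length the mean share was 7.62%. The PAX share lay near this background. The MIR129-1 fragment is a promoter fragment and is not among the 7. By gene, the PAX5 fragments held 0 of 21, beside 4.02% at like length, the PAX6 fragments 0 of 10, beside 3.81%, and the PAX9 fragments 2 of 33, beside 8.57%. The matches on contacts called in all 3 replicates are shown with 15 bases on each side and the match in capitals, from GRCh37 on the strand of the match. They are PAX9 at chr14:37623241-37623282 (minus), in the fragment downstream of the second summit, PAX9 at chr14:38052640-38052681 and chr14:38057663-38057704 (plus), in the third block, PAX3 at chr2:222914129-222914170 (minus) and PAX4 at chr7:127846547-127846588 (minus), on the MIR129-1 fragment.
PAX9, block 2: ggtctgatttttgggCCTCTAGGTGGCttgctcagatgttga
PAX9, block 3: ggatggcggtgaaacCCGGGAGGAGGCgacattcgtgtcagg
PAX9, block 3: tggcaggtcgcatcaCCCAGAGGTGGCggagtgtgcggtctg
PAX3: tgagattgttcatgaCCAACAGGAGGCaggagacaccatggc
PAX4: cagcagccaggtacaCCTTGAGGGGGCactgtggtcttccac
A match is a run of letters and does not show that a protein was bound.

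PAX proteins are known to act with EYA coactivators and DACH cofactors in eye, ear, kidney and muscle development. Of EYA1 to EYA4, DACH1 and DACH2, all but EYA2 had a promoter fragment in the calls. EYA1 had 10, 11 and 19 contacts in replicates 1, 2 and 3, from 2 promoter fragments, and 2 of the 29 in the union were called in all 3 replicates. EYA3 had 5, 2 and 1 contacts and EYA4 had 4, 3 and 4, each with 1 contact in all 3 replicates. DACH1 had 2, 2 and 0 and DACH2 had 1, 4 and 2, with none in all 3 replicates. The counts of EYA1 lay above those of EYA3, EYA4, DACH1 and DACH2 in every replicate and below those of PAX9.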

How the data were processed

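The deposited values are CHiCAGO scores that the authors computed at default parameters from PCHi-C reads mapped to GRCh37 with HiCUP, for 3 replicates (112473, 109731 and 110740 lines) and for the replicates merged (152757 lines). Scores under 5 are not listed, so weaker contacts are not seen, and read depth was not analysed here. Members and gene lists were chosen with earlier results of these data known. Transcript starts came from GENCODE v44 lifted to GRCh37, and 107 of 159 PAX transcripts start on a member fragment. The annotation is newer than the capture design. A contact was an unordered fragment pair, taken over the union of replicates, and shares over all promoters count a pair of promoter fragments from each of its ends. All fragments had HindIII sites at both ends. Named were the PAX genes, up to 3 top contacts per gene in all 3 replicates (for a gene with none, the contact in most replicates with the highest mean score) with their hosting or flanking genes, genes that start on promoter fragments contacted in all 3, and listed families by counts; others are said to be chosen after their values were seen. Cardiomyocyte genes MYH6, MYH7, TNNT2 and NKX2-5 had 32, 26, 5 and 7 contacts. Replicates are those of 1 condition, so SDs measure the spread between them and no test was run. Software was Python 3.11.15, scipy 1.17.1 and matplotlib 3.10.9, and counting was tested on simulated data. Alternatives were scores of at least 7 or 10, each replicate left out, merged calls, promoter column only, the same chromosome only, coding starts only and matching within 5 kb. Some genes of the list of PAX partners are not reported here.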

Additional observations from a re-analysis of the deposited data

How the results depend on the processing

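With scores of at least 7 and 10, the 137 PAX contacts fell to 52 and 24 and those of PAX9 to 24 and 16, the share in all 3 replicates was 40.4% and 37.5%, the median distance 463 and 474 kb, and the share with a promoter fragment 19.2% and 20.8%. The share inside another gene was 83.3% at 10, and the difference per fragment, PAX minus all, was -0.601 at 7. Leaving out 1 replicate at a time gave 37.9% to 42.7% of contacts in both remaining replicates, 16.4% to 19.1% with a promoter fragment, 79.1% to 83.6% inside another gene, and a difference per fragment of -0.160 to 0.280. On the merged calls 9.09% of contacts were with a promoter fragment, 78.3% were inside another gene, and the difference was 3.32. Lines with PAX in the promoter column alone gave 11.8% with a promoter fragment, the same chromosome alone a difference of 0.313, and matching within 5 kb put 46.7% of contacts in all 3 replicates. The difference per fragment thus had no stable sign, and its main value of -0.108 in the union was within its spread. Coding starts alone changed none of the 16 values. The cause of these shifts was not tested. Scores under 5 are not listed, so an uncalled pair is not an absent contact. PAX4 rests on 1 of 6 starts, and fragments shared with other genes cannot be assigned to 1 gene. No paired analysis was possible because there is 1 condition and so no groups to pair; differences taken within a replicate are given in the text with their SD.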
